A study of Mus musculus with 8 samples.

Results

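Heme synthesis was followed through the 9 genes Slc25a38, Alas1, Alas2, Alad, Uros, Urod, Cpox, Ppox and Fech. They were chosen by name, as the glycine carrier and enzymes of the pathway, not by a rule on their values, though with earlier results of these data known. All 9 were among the 54749 genes of the deposited counts and all 9 passed the filter on low counts, as 21902 genes did. RNA was sequenced from long-term hematopoietic stem cells (LT-HSCs) that had been sorted from mouse bone marrow. There were 4 libraries from mice homozygous for a floxed asrij allele, which served as controls (replicates 1, 3, 4 and 5), and 4 from mice with asrij knocked out in the whole body (KO, replicates 2, 3, 4 and 5). Asrij, encoded by Ociad1, is a conserved protein of endosomes and mitochondria, and the comparison asks what its loss changes in stem cell transcripts. All mice are given as 6 months old in the labels, each library came from 1 mouse by the paper's methods, and both sexes were used there. The knockout was not limited to blood cells.

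Heme is built from glycine and succinyl-CoA in a chain of enzymes that begins and ends in the mitochondrion and passes through the cytosol. The first enzyme exists in a form made in all cells, Alas1, which heme represses, and an erythroid form, Alas2, whose translation depends on iron. Red cell precursors make most of the body's heme, for haemoglobin, while other blood cells need it for cytochromes, catalase and peroxidases.

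The libraries held 23412829 to 44874882 gene counts. Ociad1 stood at 41.6, 66.9, 36.7 and 31.3 CPM (counts per 1000000 of the TMM-scaled total) in floxed replicates 1, 3, 4 and 5 and at 15.2, 19.7, 12.5 and 11.7 CPM in KO replicates 2, 3, 4 and 5. It fell by 1.58 ± 0.27 (SE) on the log2 scale (edgeR quasi-likelihood test, adjusted p = 0.0249), and the groups did not overlap, although the call was lost without floxed replicate 1 or KO replicate 2, 4 or 5 (adjusted p up to 0.0881). Haemoglobin genes took 2.85% to 7.67% of the counts in floxed and 12.2% to 24.3% in KO libraries. Floxed replicate 3 stood apart, with at least 1 count for 34367 genes where the others had 28182 to 29707, and differed more from each other floxed library than those did among themselves. KO replicates 2 and 3 formed a set apart from KO replicates 4 and 5, and floxed replicates 4 and 5 were the closest floxed pair, with replicate 1 nearer to them than to replicate 3. The labels name no batch. Of 12 stem cell markers, Kit had the highest values (46.8 to 60.2 CPM), Cd34 came next (17.5 to 36.7 CPM), and Ly6a encodes Sca-1 (4.29 to 15.2 CPM). Slamf1 was at 0.881 to 4.39 CPM and Procr at 0.142 to 0.962 CPM. The neutrophil granule gene Ngp stood at 3437 to 18427 CPM in the same libraries. In bulk libraries, fewer cells of a type and less RNA per cell cannot be told apart.

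The letters before the start of the genes are shown because most of the 9 genes had their higher values in the same libraries. RefSeq (GRCm38.p6) windows of the 250 bases before the start site were at hand for 8 of the 9 genes, and Fech had none. The start site used for Alas1 lay 700 bases inside the transcript counted for it, so its window is part of that transcript. For the other windows the start site was at most 201 bases (Uros) from the start of the counted transcript. They were searched on both strands for words bound by GATA factors (AGATAA, also with T as its first or G as its last letter), for the CACCC-type word CCNCNCCC read by Klf factors, whose own matches can overlap, and for the word TGANTCA of NF-E2. Windows are printed for the pair of first enzymes, for Alad, and for Cpox, the enzyme whose window held most GATA words, with all matches in capitals.

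Alas1 (chr9:106247955-106248204, minus strand): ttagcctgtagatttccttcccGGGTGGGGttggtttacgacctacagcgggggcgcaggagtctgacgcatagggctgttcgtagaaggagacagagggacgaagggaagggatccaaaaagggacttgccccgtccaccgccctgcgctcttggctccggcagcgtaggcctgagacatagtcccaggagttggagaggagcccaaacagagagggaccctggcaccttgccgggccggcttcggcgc
Alas2 (chrX:150547167-150547416, plus strand): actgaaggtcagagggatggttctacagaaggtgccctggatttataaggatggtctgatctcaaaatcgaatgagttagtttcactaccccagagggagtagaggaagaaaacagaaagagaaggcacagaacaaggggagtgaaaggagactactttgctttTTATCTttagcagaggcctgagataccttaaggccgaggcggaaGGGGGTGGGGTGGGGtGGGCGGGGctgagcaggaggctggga
Alad (chr4:62519910-62520159, minus strand): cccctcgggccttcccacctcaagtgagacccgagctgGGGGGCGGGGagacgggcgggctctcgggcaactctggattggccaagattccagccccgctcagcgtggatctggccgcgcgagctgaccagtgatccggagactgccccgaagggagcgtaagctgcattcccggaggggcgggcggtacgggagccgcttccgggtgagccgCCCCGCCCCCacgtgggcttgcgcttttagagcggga
Cpox (chr16:58669958-58670207, plus strand): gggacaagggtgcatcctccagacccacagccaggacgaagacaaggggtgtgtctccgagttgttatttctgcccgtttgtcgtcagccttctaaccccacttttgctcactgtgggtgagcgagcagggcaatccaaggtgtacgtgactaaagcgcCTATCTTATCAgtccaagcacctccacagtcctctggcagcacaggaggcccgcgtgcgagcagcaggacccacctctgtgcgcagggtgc

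GATA words were found in 2 of the 8 windows, in Alas2 (86 to 81 bases before the start) and in Cpox (2 words that share 1 base, 91 to 81 bases before it). Of all 32851 mouse windows of this length, 26.5% held such a word. The CACCC-type word was found in 5 of 8 (Slc25a38, Alas1, Alas2, Alad and Uros) against 45.9% of all windows, and Alas2 and Alad each held 4 matches, some of which overlapped. The windows of Urod and Ppox held none of these words. The NF-E2 word was found in none of the 8 and in 6.75% of all windows. A match describes letters only.

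Alas2 messenger RNA also carries an iron-responsive element, the hairpin through which iron regulatory proteins hold back its translation. The loop word CAGTGN with a C 5 bases before it, searched on the transcript's own strand in its first 100 bases, was found in 3.76% of 58737 protein-coding transcripts. The first 27 bases of 1 annotated Alas2 transcript are shown because they hold the loop of that element, in capitals at bases 12 to 17. Among the other 8 genes, matches in Fech were not recorded, and in the rest the same letters were found in 2 transcripts of Uros.

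Alas2: tggttcgtcctCAGTGCagggcaacag

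This element acts on translation, which the libraries do not measure.

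Of the 9 genes, 8 had a higher mean log2 level in KO than in floxed libraries and 1, Alas1, had a lower one. By edgeR's quasi-likelihood test with adjustment over all genes, Alad and Urod were higher in KO at an adjusted p under 0.05, which makes 2 of 9 beside 2.97% of all genes tested (1.22% higher and 1.75% lower in KO). Only Alad also passed an absolute log2 fold change of 1.5, which makes 1 of 9 beside 1.19% of all genes. The KO libraries all lay above all floxed libraries for 6 of 9 genes, beside 7.1% of all genes, and overlapped with them for Alas1, Cpox and Fech. The median log2 fold change of the 9 genes was 1.0, beside -0.01 over all genes tested.

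**Figure D1:**
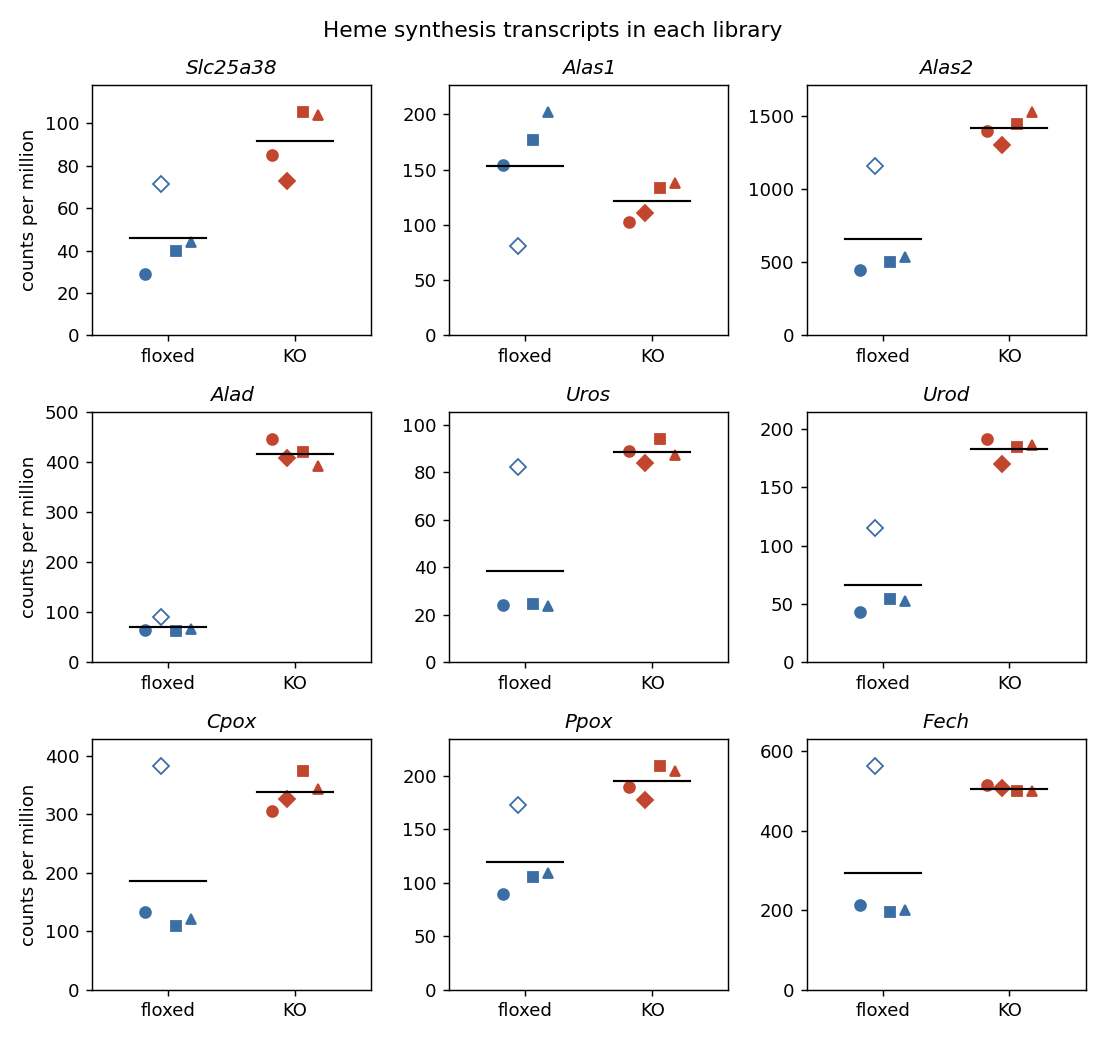
Level of each of the 9 heme synthesis genes in every library, in CPM from 0, with floxed libraries in blue and KO libraries in red. Circles mark numbers 1 (floxed) and 2 (KO), diamonds number 3, squares number 4 and triangles number 5, the open diamond is floxed replicate 3, and bars are the means of 4 libraries. Alad shows 4 floxed values of 63.6 to 90.9 CPM and 4 KO values of 392 to 447 CPM, while for Cpox and Fech the open diamond lies above the KO values.

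Slc25a38, the mitochondrial carrier that brings in glycine for the first step, stood at 28.9, 71.6, 39.6 and 43.9 CPM in floxed replicates 1, 3, 4 and 5 and at 85.1, 72.8, 106 and 104 CPM in KO replicates 2, 3, 4 and 5. The lowest KO library, replicate 3, lay just above floxed replicate 3, so that the groups were apart by little. The log2 fold change was 1.0 ± 0.27 (SE), which did not pass (adjusted p = 0.0708).

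Alas2, the erythroid first enzyme, had floxed values of 447, 1159, 499 and 535 CPM and KO values of 1400.3, 1305, 1443 and 1530.1 CPM in the same order of replicates. Floxed replicate 3 was more than the other floxed libraries and under every KO library, and the KO libraries were close to each other. The log2 fold change was 1.10 ± 0.31 (adjusted p = 0.0816). Alas1, the first enzyme of all cells, was the 1 gene with values of the opposite order: 154, 80.5, 176 and 202 CPM in floxed and 103, 111, 134 and 138 CPM in KO libraries. Its lowest value was floxed replicate 3 and its highest were the other floxed libraries, so the floxed values enclosed all KO values. The difference, -0.34 ± 0.26 on the log2 scale, did not pass (adjusted p = 0.502).

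Alad makes porphobilinogen in the cytosol by joining a pair of aminolevulinate molecules. It was at 65.8, 90.9, 63.6 and 67.6 CPM in floxed libraries and at 447, 409, 422 and 392 CPM in KO libraries. The lowest KO value was over 4 times the highest floxed value, and floxed replicate 3 was only a little above the other floxed libraries. The means were 72.0 ± 12.7 CPM (SD, n = 4) and 418 ± 23.1 CPM (SD, n = 4). Alad rose by 2.54 ± 0.18 on the log2 scale, or 5.80-fold (adjusted p = 0.000455). The rise passed with any 1 library left out (log2 fold change 2.48 to 2.68, highest adjusted p = 0.00532). Within numbers 1 to 3 alone, with 2 libraries a genotype, it was 2.47 (adjusted p = 0.102), and within numbers 4 and 5 it was 2.63 (adjusted p = 7.45e-07).

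Uros forms the ring of the uroporphyrin stage. Its values were 24.2, 82.2, 24.7 and 23.7 CPM in floxed and 89.0, 84.0, 94.1 and 87.4 CPM in KO libraries, so that floxed replicate 3 fell just short of the lowest KO library. The log2 fold change of 1.19 ± 0.40 did not pass (adjusted p = 0.122).

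Urod, the last cytosolic enzyme at the ring stage before coproporphyrinogen oxidation, showed 43.4, 115, 54.8 and 52.8 CPM in floxed and 192, 170.2, 185 and 186 CPM in KO libraries. All KO libraries were above floxed replicate 3, which was itself above the other floxed libraries. Urod rose by 1.46 ± 0.29 (adjusted p = 0.0338). This call was lost when any library other than floxed replicate 3 was left out (highest adjusted p = 0.0977) and in the fit with a replicate block, in which libraries of the same number are paired (log2 fold change 1.40, adjusted p = 0.122). Alad passed that paired fit too (log2 fold change 2.5, adjusted p = 0.0164).

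The last steps take place in and around the mitochondrial membranes. Cpox, coproporphyrinogen oxidase, was at 132, 383, 109.8 and 121 CPM in floxed and 306, 327, 374 and 343 CPM in KO libraries, and its highest value of all was that of floxed replicate 3. Ppox, protoporphyrinogen oxidase, was at 89.9, 173, 105 and 109.6 CPM in floxed and 189.7, 177, 209 and 205 CPM in KO libraries. Fech, the ferrochelatase that inserts iron, was at 213, 563, 196 and 200.1 CPM in floxed and 514, 507, 499.7 and 501 CPM in KO libraries. The 4 KO values of Fech were nearly the same, and floxed replicate 3 was above all of them. None of these genes passed: the log2 fold changes were 0.86 ± 0.39 for Cpox (adjusted p = 0.233), 0.71 ± 0.21 for Ppox (adjusted p = 0.0948) and 0.79 ± 0.34 for Fech (adjusted p = 0.221).

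Floxed replicate 3 stood apart from the other floxed libraries for most of these genes. Relative to the mean of the other floxed libraries, its log2 level was 1.76 higher for Uros, 1.66 for Cpox, 1.47 for Fech and 1.23 for Alas2, but 0.47 for Alad, and for Alas1 the difference was -1.14. On the same scale the KO libraries lay between 1.80 and 1.96 for Uros and between 2.58 and 2.77 for Alad. The profile of floxed replicate 3 along the pathway thus lay closest to that of the KO libraries at Slc25a38, Alas2, Uros, Cpox, Ppox and Fech and farthest from it at Alad. At Urod it was 1.19, where the KO libraries were 1.76 to 1.93.

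**Figure D2:**
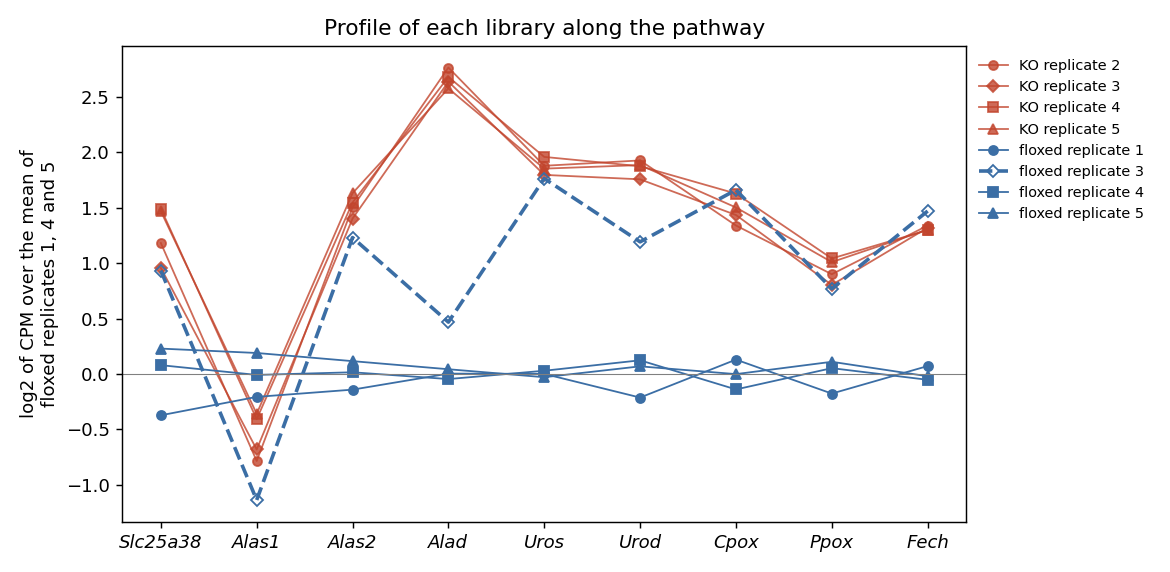
Level of each gene in each library relative to the mean of floxed replicates 1, 4 and 5, on the log2 scale, with the genes in pathway order, KO libraries in red and floxed libraries in blue. The dashed line with open diamonds, floxed replicate 3, is farthest from the KO lines at Alad, where it is 0.47 and the KO lines are 2.58 to 2.77.

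Without floxed replicate 3, all 9 genes passed an adjusted p of 0.05, 8 of them higher in KO, beside 8.9% of all genes tested that were called higher in KO in that fit. The log2 fold changes were then 2.68 for Alad, 1.88 for Uros, 1.87 for Urod, 1.53 for Alas2, 1.49 for Cpox, 1.33 for Fech, 1.30 for Slc25a38 and 0.95 for Ppox. Alas1 was lower in KO, with -0.54 (adjusted p = 0.0441). Within numbers 4 and 5 the log2 fold changes ranged from -0.48 for Alas1 to 2.63 for Alad, and within numbers 1 to 3, which hold floxed replicate 3, from -0.12 to 2.47. Each subset gave every gene the same direction as the fit of all libraries.

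**Figure D3:**
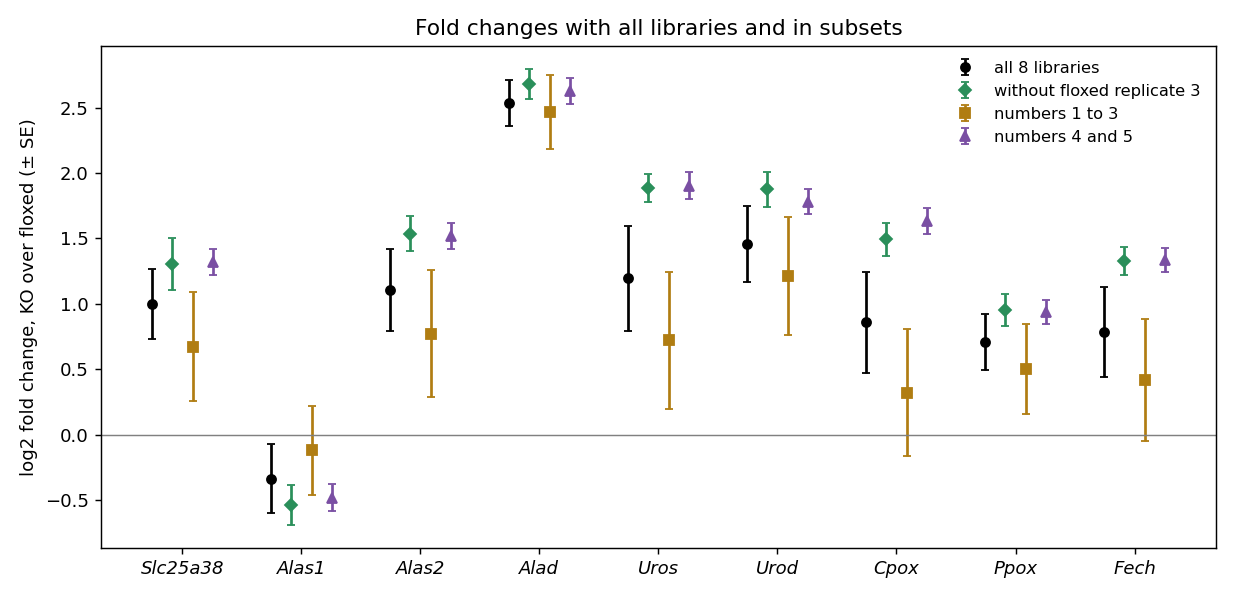
Log2 fold change of KO over floxed with its SE for each gene, from edgeR fits of all 8 libraries (black circles), without floxed replicate 3 (green diamonds), and within numbers 1 to 3 (ochre squares) or numbers 4 and 5 (violet triangles) alone. Alad lies between 2.47 and 2.68 in all 4 fits, while Cpox ranges from 0.32 within numbers 1 to 3 to 1.63 within numbers 4 and 5.

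Ratios inside a library need no scaling between libraries. The count of Alas2 over that of Alas1 was 2.91, 14.4, 2.83 and 2.64 in floxed replicates 1, 3, 4 and 5 and 13.6, 11.8, 10.8 and 11.1 in KO replicates 2, 3, 4 and 5. Floxed replicate 3 had the highest ratio of all libraries and the other floxed libraries had the lowest. The difference of 1.48 on the log2 scale did not pass (exact two-sided permutation test, p = 0.143, smallest possible p = 0.0286). It was 2.08 without floxed replicate 3, 0.97 within numbers 1 to 3 and 2.0 within numbers 4 and 5.

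Alas2 was also set beside the summed counts of the haemoglobin genes, the main users of erythroid heme. There were 17.2, 17.8, 9.98 and 10.8 Alas2 counts per 1000 haemoglobin counts in floxed and 10, 11.1, 6.10 and 5.28 in KO libraries. Within numbers 1 to 3, and again within numbers 4 and 5, the KO values were under the floxed values, but the groups overlapped across numbers, and the log2 difference of -0.80 did not pass (exact two-sided permutation test, p = 0.143). It was -0.73 within numbers 1 to 3 and -0.87 within numbers 4 and 5.

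The ratio of Alad to Alas2 was added after the values had been seen and carries no test. It was 0.147, 0.0784, 0.128 and 0.127 in floxed and 0.319, 0.314, 0.292 and 0.256 in KO libraries. The KO libraries lay above all floxed libraries, among which replicate 3 was the lowest.

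**Figure D4:**
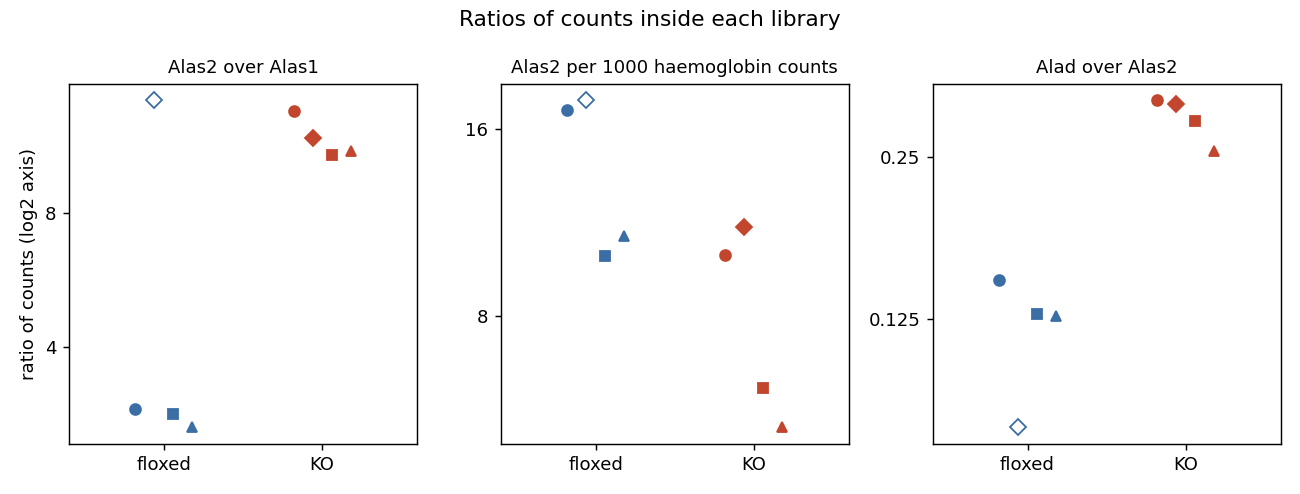
Ratio of counts inside each library on log2 axes for Alas2 over Alas1, Alas2 per 1000 haemoglobin counts, and Alad over Alas2, with floxed libraries in blue, KO libraries in red and symbols by number (circle 1 or 2, diamond 3, square 4, triangle 5, open diamond floxed replicate 3). In the left panel the open diamond, at 14.4, lies above all KO values, and in the right panel, at 0.0784, it lies below all other values.

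Levels of different genes were compared per kilobase of the spliced transcript counted. In floxed libraries Alas2 was first with 324 ± 164 CPM per kb (SD, n = 4), followed by Fech with 142 ± 87.4, Cpox with 60.2 ± 42.4 and Alad with 59.7 ± 10.5 CPM per kb. Alas1, Urod, Ppox, Slc25a38 and Uros came after them, from 45.1 ± 15.4 for Alas1 down to 17.7 ± 13.2 CPM per kb for Uros. The ranges of neighbours in this order overlapped throughout. Within every floxed library, however, Alas2 was above Fech, Fech above Cpox, Urod above Ppox and Slc25a38 above Uros. The other neighbours changed order between floxed libraries.

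In KO libraries the order began with Alas2 at 697 ± 45.9, Alad at 346 ± 19.1, Fech at 245 ± 3.22 and Urod at 123 ± 6.13 CPM per kb, with no overlap between these neighbours. Cpox followed at 109 ± 9.23 CPM per kb, and its range overlapped with that of Urod, though Urod was above Cpox within every KO library. Slc25a38, Ppox, Uros and Alas1 were last, at 51.3 ± 8.76 to 35.7 ± 5.08 CPM per kb, each overlapping with its neighbour. Within every KO library Slc25a38 was above Ppox and Ppox above Uros, while Uros and Alas1 changed order between KO libraries. Alad was thus in place 4 of 9 in floxed and in place 2 in KO libraries. Since the deposited counts cover the genomic span of a transcript with its introns, the span was used as another length, and most places depended on this choice. By span the order was Alas2, Ppox, Cpox, Urod, Alas1, Fech, Alad, Slc25a38 and Uros in floxed libraries, and Alas2, Urod, Alad, Ppox, Cpox, Fech, Alas1, Slc25a38 and Uros in KO libraries. Alas2 stayed first in both groups, and Alad was in place 7 in floxed and 3 in KO libraries. Fech, in places 2 and 3 by spliced length, was in place 6 in both groups.

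**Figure D5:**
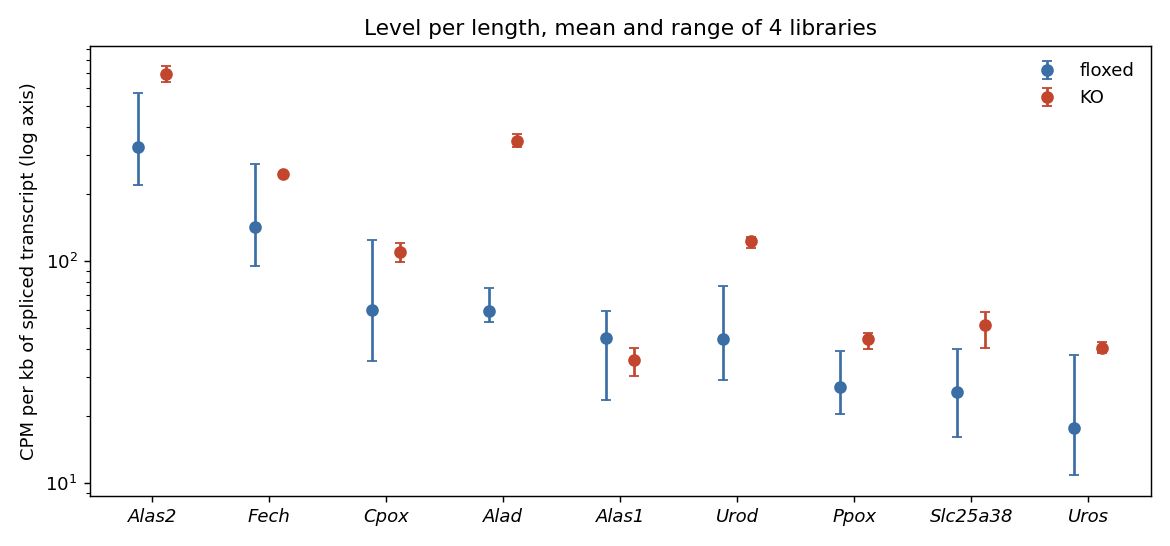
Mean level of each gene in CPM per kilobase of spliced transcript on a log axis, with bars from the lowest to the highest of 4 libraries, floxed in blue and KO in red, in the order of the floxed means. Alas2 is first in both groups, and the mean of Alad moves from 59.7 to 346 CPM per kb.

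The genes were placed as follows in the mouse genome (GRCm38), and the counts of some share reads with a neighbour. Alad (chromosome 4, 62509169 to 62519918) and Urod (chromosome 4, 116989965 to 116994413) lie on 1 chromosome, as do Slc25a38 (chromosome 9, 120110374 to 120124504) and Alas1 (chromosome 9, 106233455 to 106248654). Alas2 (chromosome X, 150547375 to 150570638) lies wholly inside the span counted for Apex2 on the other strand, and 61 of its bases are shared with Mir3620. The count of Apex2 totalled 294743 over the 8 libraries against 291682 for Alas2, so nearly all reads counted for Apex2 lay in the span of Alas2. Within that span the counts do not tell the reads of these genes apart. The transcript counted for Ppox (gene on chromosome 1, 171275990 to 171281186) retains introns and shares 906 bases with B4galt3. With the coding transcript of Ppox, the log2 fold change was 0.79 (adjusted p = 0.131). Uros (chromosome 7, 133686243 to 133710072) was also counted on a transcript that retains introns, and Alas1 shares 695 bases with an antisense transcript of 117 counts in all. The transcript counted for Cpox (gene on chromosome 16, 58670292 to 58717636) ends at 58680386 and shared no bases with the transcript counted for another gene.

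Over the 8 libraries, which share their scaling and include floxed replicate 3, the log2 levels of the genes other than Alas1 and Alad moved together: Pearson's r was 0.894 to 0.993 over 21 pairs. Alad had an r of 0.786 to 0.941 with them, and Alas1 had negative r with all others, from -0.842 to -0.431. The genes whose levels were most like those of Alas2 were Ubac1 (r = 0.998), Slc25a51 (r = 0.997) and Dnajb2 (r = 0.997). Those most like Alas1 were Sash3, Wsb2 and Rap2b, with r from 0.993 to 0.997. Alad was most like Loxl2 (r = 0.999), Thbs1 (r = 0.995) and Cfap74 (r = 0.994). Taken over both genotypes, such an r includes the difference between KO and floxed libraries. Loxl2 was at 0.607, 2.02, 0.425 and 0.460 CPM in floxed and 86.8, 88.9, 72.4 and 71.7 CPM in KO libraries, so floxed replicate 3 was much nearer to the other floxed libraries than to the KO libraries.

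Other genes of heme handling were read from lists of names. Of 17 carriers and transporters around the pathway, 2 were higher and 1 was lower in KO at an adjusted p under 0.05, with a median log2 fold change of 0.81. Over all genes tested, 1.22% were called higher and 1.75% lower, and the median was -0.01. Tspo2, an erythroid relative of the mitochondrial translocator protein, was at 24.2, 26.8, 26.6 and 28.4 CPM in floxed and 103, 91.7, 122 and 112 CPM in KO libraries. Floxed replicate 3 lay among the other floxed libraries. Tspo2 rose by 2.01 ± 0.15 (adjusted p = 0.000455, with the replicate block 0.0160).

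Slc25a39, a mitochondrial carrier needed for the import of glutathione, rose by 1.34 ± 0.20 (adjusted p = 0.0159, with the replicate block 0.118), from 74.8 ± 17.5 to 189 ± 22.6 CPM (SD, n = 4 each). Flvcr1, described as a heme exporter, fell from 36.8 ± 7.06 to 18.4 ± 1.10 CPM, with a log2 fold change of -1.0 ± 0.17 (adjusted p = 0.0245, with the replicate block 0.127). The groups did not overlap for either gene.

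Of 16 regulators, 2 were higher and 1 was lower (over all genes, 1.22% and 1.75%), with a median of 0.38 beside the -0.01 of all genes. Gata1, the erythroid and megakaryocytic transcription factor, was at 26.0, 79.1, 38.6 and 37.7 CPM in floxed and 118, 106, 181 and 172 CPM in KO libraries and rose by 1.67 ± 0.34 (adjusted p = 0.0372, with the replicate block 0.141). Klf1, the erythroid factor of CACCC words, rose by 1.85 ± 0.41 (adjusted p = 0.0464, with the replicate block 0.141), with its highest values, 449 and 422 CPM, in KO replicates 4 and 5. Hif1a, the hypoxia-induced factor, fell, with a log2 fold change of -1.02 ± 0.20 (adjusted p = 0.0319, with the replicate block 0.122), from 55.1 ± 13.4 to 27.2 ± 4.02 CPM.

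Of 14 genes of iron-sulfur cluster assembly, which Fech needs as an iron-sulfur protein, 3 were higher (over all genes, 1.22%) and none was lower, with a median of 0.51 beside -0.01 over all genes. Glrx5, the mitochondrial glutaredoxin that passes clusters on, was at 73.0, 159, 123 and 123 CPM in floxed and 384, 318, 617 and 573 CPM in KO libraries and rose by 1.99 ± 0.30 (adjusted p = 0.0176, with the replicate block 0.100). Hscb, a co-chaperone of cluster transfer, rose by 1.2 ± 0.23 (adjusted p = 0.0316, with the replicate block 0.122), and Isca1, an assembly protein, by 1.14 ± 0.26 (adjusted p = 0.0486, with the replicate block 0.166).

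With 1 library left out, Tspo2 passed in all 8 fits, Glrx5 in 4, Slc25a39 in 3, Flvcr1 in 2, and Gata1, Klf1, Hif1a, Hscb and Isca1 in 1 of 8, that without floxed replicate 3.

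None of 10 tested genes that supply succinyl-CoA and glycine passed in edgeR, where 3 had an unadjusted p under 0.05 (at an adjusted p under 0.05, 0 in DESeq2 and 0 in limma-voom), and their median log2 fold change was 0.21. The smallest p-values were those of Shmt2, which makes glycine from serine (34.98 ± 2.67 CPM in floxed and 43.8 ± 3.13 CPM in KO, adjusted p = 0.189), and Mthfd2, a mitochondrial folate enzyme (32.4 ± 1.91 and 39.7 ± 1.39 CPM, adjusted p = 0.207).

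Markers of other cells were read beside the share of 1.22% of all genes called higher and 1.75% called lower and the median of -0.01. Of 23 erythroid markers tested, all 23 had log2 fold changes above 0, with a median of 1.10. Of these, 3 passed an adjusted p of 0.05 and none did with the replicate block (lowest adjusted p = 0.127). Their summed level was 29039.8 to 74537 CPM in floxed and 125819 to 298362 CPM in KO libraries. Floxed replicate 3 was the highest floxed library for all 23. It lay above every KO library for 7 of them, within the KO range for 8 and below every KO library for 8. Epb42, a membrane skeleton gene, was among the first, at 86.0, 281, 63.1 and 65.5 CPM in floxed and 167, 175, 141 and 153 CPM in KO libraries. The blood group gene Rhd was among the last, at 50.3, 175, 46.0 and 52.3 CPM in floxed and 252, 239.7, 203 and 197 CPM in KO libraries, as were all 4 haemoglobin genes listed. Hba-a1 was at 7132, 17061, 16452 and 16096 CPM in floxed and 49035, 38653, 84649 and 110964 CPM in KO libraries, with floxed replicate 3 close to floxed replicates 4 and 5. For Hbb-bs, at 8908, 24093, 13956 and 13848 CPM in floxed and 38634, 35737, 66457 and 72986 CPM in KO libraries, it was well above them.

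Of 10 megakaryocyte and platelet markers, 7 were higher and none was lower, with a median of 1.79. With the replicate block only Pf4, a platelet chemokine, of the 7 passed (adjusted p = 0.0160, the others up to 0.122). The summed level of the 10 was 167 to 254 CPM in floxed and 344 to 429 CPM in KO libraries. The 12 neutrophil and myeloid markers summed to 16938 to 53959 CPM in floxed, lowest in replicate 3, and to 25738 to 32366 CPM in KO libraries. Their median was -0.52, with 1 of 12 above 0. None of them passed in edgeR (none at an unadjusted p under 0.05, 0 in DESeq2, 0 in limma-voom). Without floxed replicate 3, Mpo, Ctsg, Ltf, Ngp, Lcn2 and Ly6c2 were lower in KO (edgeR, adjusted p under 0.05), and the rest did not pass. In that fit 17.5% of all genes passed in either direction. The 10 B cell and plasma cell markers, 2 higher and 1 lower (none of the 3 with the replicate block, lowest adjusted p = 0.118), with a median of 0.35, summed to 1086 to 1438 CPM and 1138 to 1328 CPM. The 8 T and NK cell markers summed to 63.1 to 88.2 CPM in floxed and 47.0 to 50.3 CPM in KO libraries. Their median was -0.60, with 1 of 8 above 0. None of the 8 passed in edgeR (4 at an unadjusted p under 0.05, 0 in DESeq2, 0 in limma-voom). The 12 stem cell markers, 11 of them tested, had 1 higher (with the replicate block, adjusted p = 0.105) and a median of 0.06. They summed to 109 to 130.4 CPM in floxed and 112 to 132 CPM in KO libraries. Hoxb5 had no count in KO replicates 3 and 5, and every other marker found had a count in every library. The part of these cells in the values of the heme genes was not tested.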

How the data were processed

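The libraries were made from 100 ng of total RNA with the NEBNext Ultra kit, per the labels. The submitters' processing notes name FastQC, Trim Galore, Bowtie2 and the builds GRCm38 and mm10, and by the paper's methods the authors used them to check, trim and align the reads. The authors deposited a raw, whole-number count for each of 138930 transcripts in each library. The counter, its use of strand and all versions are not given in the sources used here. A deposited count covers the whole span of a transcript on both strands, as is seen where 1 gene lies within an intron of another. In 7 of the 8 files tabs separate the fields under a comma-separated name, and their whole numbers were checked separately.

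GENCODE M21 (GRCm38) gave the gene of 138789 transcripts, and each gene took the counts of its transcript with the highest total. Tests were edgeR's quasi-likelihood F-tests (version 4.0.16, R 4.3.3) after filterByExpr and TMM scaling, over 21902 genes, with Benjamini-Hochberg adjustment and thresholds of 0.05 on the adjusted p and 1.5 on the absolute log2 fold change. CPM used TMM-scaled totals, with 1 added before logs for Pearson's r between genes and for the flagged libraries. Levels relative to the other floxed libraries had nothing added. In the ratios, 1 was added to each count. Ratios were compared by exact permutation over 70 labelings in scipy 1.17.1. The p-values measure the spread between libraries. The edgeR, DESeq2 and limma-voom fits with genotype alone were tested on simulated data, and the other alternatives were not.

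The 9 genes and all lists were chosen with earlier results of these data known. The genes named were the 9, those past an adjusted p of 0.05 on each pathway list (at most 5, or else the 2 with the smallest p), and the 3 genes most like Alas1, Alas2 and Alad by Pearson's r, without overlapping, haemoglobin or clone-named genes. The marker genes and the neighbours of Alad were named after their values were seen. Fdx2 was not among the names, since GENCODE M21 holds it as Fdx1l, and Ahsp was not found.

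The main fits and the permutation tests did not pair libraries. Libraries of the same number were taken as paired only in the replicate block and in the ratio differences of same-numbered pairs. This was done because their deviations from the group means correlated in all 3 pairs (r = 0.374 to 0.579). Libraries of other numbers correlated as highly within numbers 1 to 3 and within numbers 4 and 5 (up to 0.603). The replicate block held only the same-numbered pairs, without floxed replicate 1 and KO replicate 2. Alternatives were RLE and upper-quartile scaling, no filter, DESeq2 1.42.0, limma-voom (limma 3.58.1), sums over transcripts, removal of haemoglobin or immunoglobulin genes, a replicate block, a term for numbers 4 and 5, and each library left out. Coding transcripts and the fits within numbers were added after the data were seen.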

Additional observations from a re-analysis of the deposited data

Results flagged for a closer look

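Dixon's criterion was applied to 48 groups of 4 libraries (the heme genes, the other genes named from the pathway lists, Ociad1 and the 3 ratios, in each genotype). Of these, 6 held a library far from the other 3, and chance alone flags about 1 in 20 groups. The groups share libraries and many of their genes moved together, so the flags are not independent of each other. Floxed replicate 3 was the library far from the others in 4 of the 6 flagged groups. Its log2(CPM + 1) was 6.38 for Uros (other floxed libraries 4.63 to 4.68), 8.58 for Cpox (6.79 to 7.06) and 9.14 for Fech (7.62 to 7.74). Its log2 ratio of Alas2 to Alas1 was 3.85, against 1.40 to 1.54 in the other floxed libraries. KO replicate 3 was low for Slc25a39 (7.29 against 7.62 to 7.67), and floxed replicate 1 was high for Hif1a (6.25 against 5.58 to 5.68).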

How the results depend on the processing

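All 9 heme genes kept their direction in every alternative run, and RLE and upper-quartile scaling and the removal of haemoglobin or immunoglobulin genes changed no call among them. Alad lost its call only within numbers 1 to 3. The number of the 9 genes with an adjusted p under 0.05, 2 with all libraries, was 3 without a filter (Slc25a38 added) and 3 with sums over transcripts (Alas2 added), 6 with DESeq2, 1 with the replicate block (paired), 6 with the term for numbers 4 and 5, 0 within numbers 1 to 3, 9 within numbers 4 and 5, and 1 to 9 with 1 library left out, 9 only without floxed replicate 3. The share of all genes tested that passed in the same fit, 2.97% with all libraries, was 1.92% without a filter and 2.79% with sums over transcripts. It was 11.2% with DESeq2, 0.222% with the replicate block and 18.5% with the term. Within numbers 1 to 3 it was 0.00855%, within numbers 4 and 5 32.8%. With 1 library left out it was 0.274% to 17.5%, highest without floxed replicate 3. The 9 genes that passed on the pathway lists became 21, 1, 23, 0, 33 and 1 to 26 in the same order of DESeq2, replicate block, term, subsets and left-out libraries. Over all genes the 651 with an adjusted p under 0.05 became 2447, 48, 4059, 2, 6883 and 61 to 3875, and the 261 past both thresholds became 503, 44, 521, 2, 1061 and 51 to 857. The causes were not tested. The 3 ratios kept their direction throughout: with 1 library left out, the log2 difference was 1.26 to 2.08 for Alas2 over Alas1, -0.97 to -0.62 for Alas2 over haemoglobin and 1.14 to 1.44 for Alad over Alas2, and in same-numbered pairs it was 1.24, -0.81 and 1.40. A design of 4 against 4 libraries with 1 that stands apart limits what smaller changes can show.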

Other observations

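The genes beside Alad on chromosome 4 were looked at after the values had been seen. Hdhd3, a phosphatase-like gene 5702 bases away, was at 1.0, 0.38, 0.98 and 0.80 CPM in floxed replicates 1, 3, 4 and 5 and at 2.43, 1.90, 4.04 and 3.91 CPM in KO replicates 2, 3, 4 and 5 (20 to 114 counts a library), with a log2 fold change of 1.96 ± 0.40 (edgeR, adjusted p = 0.0373). Pole3, a subunit of a DNA polymerase, 2731 bases away on the other side, was at 25.8, 38.3, 29.1 and 24.2 CPM in floxed and 46.9, 49.6, 44.5 and 47.5 CPM in KO libraries (log2 fold change 0.68 ± 0.17, adjusted p = 0.0592). All KO libraries were above all floxed libraries for both genes. Of the next genes outwards, Bspry (0.48 ± 0.39) and Wdr31 (1.29 ± 0.62) on the side of Hdhd3 and Rgs3 (-0.55 ± 0.30) on the side of Pole3 had overlapping groups and did not pass.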
